A study of Mus musculus with 13 samples.

Results

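This account follows 119 mouse genes whose symbol is Zfp and a number (C2H2 zinc finger genes by name) through endoplasmic reticulum (ER) stress, as read from ribosome footprints. They were taken by symbol and level: of the 22406 gene symbols in the deposited tables, 343 had such a symbol, Zfp36 was left out because its fingers are of the CCCH kind, and 119 of the remaining 342 had a mean of at least 5 TPM (the length-scaled share of each library that a gene takes) over the 10 libraries of mouse embryonic fibroblasts (MEFs). The other 223 lay under that level, and 11 of them had no count in any MEF library. Just inside the limit were Zfp827, Zfp592 and Zfp407 with mean TPM of 5.01, 5.16 and 5.24, and just outside it were Zfp868, Zfp770 and Zfp715 with 4.97, 4.90 and 4.89. The same limit left 8960 genes in all, and these are the background given beside each count of members.

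The series held 13 ribosome footprint libraries, 1 for each condition. WT MEFs and PERK −/− MEFs, which lack the kinase that phosphorylates eIF2α when the ER is overloaded, were untreated or had been given thapsigargin (Tg), a SERCA pump inhibitor that empties the ER of calcium, at 1 µM for 1, 2, 5 or 8 h, and NIH3T3 cells, an immortalised mouse fibroblast line with intact PERK, were untreated or had 200 nM Tg for 2 or 7 h. Each Tg library was compared with the untreated library of its own cells, and because no condition was repeated, no test of a condition was possible and no p-value is given. The PERK −/− and WT MEFs are separate lines, so that the loss of PERK and any other difference between these lines cannot be told apart, and the dose differed between MEFs and NIH3T3 cells.

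C2H2 zinc finger proteins form the largest class of DNA-binding proteins in mammals. Each finger is a short fold held by a cysteine pair and a histidine pair around a zinc ion, and fingers strung in tandem read successive bases of DNA. Many of them also carry a KRAB domain near the amino end, which recruits the corepressor Trim28 (KAP1) with the histone methyltransferase Setdb1, and such proteins are known above all for silencing transposable elements and keeping imprints. A minority act elsewhere, on RNA, ribosome assembly or ubiquitin.

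Sequence shared between genes limits how well some of these genes can be counted. Fingers are joined by a linker whose codons recur from gene to gene. The linker codons, searched as ACNGGNGANAANCCN on the coding strand of the longest GENCODE coding sequence, were found in 71 of the 119 members (59.7%). The most in a member, 18, were in Zfp808. Of the 8827 background genes with a coding sequence, members included, 141 (1.60%) held the linker codons, with 22 at most. The windows below have 28 bases, near the length of a footprint, and come from the 8 members in which over 20% of such windows were shared with at least 1 other gene. Capitals mark the linker codons, and the reading is 5′ to 3′ on the coding strand of mm10 transcripts.
Zfp932 and Zfp960: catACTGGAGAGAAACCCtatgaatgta
Zfp971: catACAGGAGAGAAACCCtatgaatgta
Zfp808: catACTGGAGAGAAACCCtacaaatgtg
Zfp781: catACTGGAGAAAAACCCtatgaatgta
Zfp738: catACAGGAGAGAAACCAtacaagtgtg
Zfp65: cacACAGGAGAGAAACCAtacaaatgta
Zfp747: cacACTGGGGAGAAGCCTtactgttgtg
The first of these windows stood in the coding sequences of 25 genes, that of Zfp971 in 21, that of Zfp808 in 8 and that of Zfp738 in 6. A footprint on such a stretch cannot be placed by sequence alone, and the authors' expected counts divided it among genes. The linker's part in this sharing was not tested. Zfp35 held 14 linkers and shared 1.63% of its windows. Zfp960 shared 87.6% of its windows with Zfp97 alone and Zfp781 all of them with Gm3055, whereas Zfp932 shared 11.2% with its closest partner. For 82 of the 119 members, under 1% of windows were shared, and 18 members shared over 10%. Of the 40 members with a KRAB pattern (described below), 14 were under 1% and the median was 4.48%. Of the 79 others, 68 were under 1% and the median was 0. Members whose TPM and counts differed are listed further on.

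The members' proteins were checked against the family name. A finger pattern was found in 115 of them, with a median of 9 fingers and up to 33 in Zfp462, and a KRAB pattern in 40, against 290 and 55 among the background genes. The 4 members without a finger pattern were Zfp703 and Zfp503, of the NET family with divergent fingers, the nucleolar protein Zfp330, and Zfp781, whose reference coding sequence held 4 linkers but no whole finger pattern. The KRAB pattern is a match to 2 short protein motifs and may miss divergent KRAB domains. Members lay on 20 chromosomes, 22 of them on chromosome 7 and 13 on chromosome 8. Those with the KRAB pattern had a median GC content of 43.5% in the coding sequence and those without it 53.4%, against 52.6% over the background.

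The libraries held from 2525029 expected counts (WT MEFs, 2 h) to 14799515 (PERK −/− MEFs, 2 h), and the median member had 57 counts in the shallowest and 227 in WT MEFs at 8 h. The targeted gene Eif2ak3, which encodes PERK, had 254 expected counts and 6.03 TPM in untreated WT MEFs and 74 counts and 11.2 TPM in untreated PERK −/− MEFs, so that counts and TPM disagreed in direction, and a total over the gene does not tell deleted from kept exons. The PERK-dependent transcription factor gene Ddit3 (CHOP) was at 13.8, 272, 442, 564 and 580 TPM in WT MEFs (untreated, 1, 2, 5 and 8 h) and at 6.91, 8.28, 14.2, 10.8 and 13.3 TPM in PERK −/− MEFs, which separated the genotypes as labelled. Fibroblast markers summed to between 4828 and 8983 TPM over the 13 libraries, with Vim at 1549 TPM or more in each. Not all of them were high: Lum stayed at 5.13 TPM or less, and the lowest values of Pdgfra and Col3a1 were 0.27 and 0.64 TPM. The 10 markers of other cell types summed to at most 145 TPM, of which the neuronal tubulin Tubb3 made up 20.9 to 143. Krt8 and Des reached 15.6 and 7.39 TPM at most, while Ptprc, Pecam1 and Cdh1 stayed under 1 TPM.

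Most members were translated at modest levels. Their median mean TPM was 9.73 against 26.7 for the background, 62 of the 119 lay under 10 TPM, and 24 reached 20 TPM. Zfp207, which binds the checkpoint protein Bub3 and takes part in mitosis and splicing, stood far above the rest at 189, 223, 214, 191 and 191 TPM in WT MEFs. Zfp706, a small protein with 1 finger pattern, followed with 126, 89.6, 72.3, 84.1 and 104 TPM, then Zfp622, Zfp330 and Zfp326 with mean TPM of 66.1, 60.8 and 51.9. The changes of Zfp207 lay between 0.01 and 0.39 on the log2 scale over the 10 Tg libraries. Zfp422 was at 33.4 to 47.2 TPM in the MEF libraries and listed at 0 in 2 of the 3 NIH3T3 libraries (2.92 TPM at 2 h), and Zfp746 had under 1 TPM in all 3, so that their NIH3T3 values say nothing of Tg.

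The summed share of footprints on the members rose with Tg in the cells that have PERK. In WT MEFs the 119 genes took 2986 CPM (counts scaled to a common library total, not to length) when untreated (95% Poisson interval 2955 to 3017). The sums after 1, 2, 5 and 8 h of Tg were 3681 (3619 to 3744), 3648 (3574 to 3723), 3246 (3199 to 3293) and 3297 (3264 to 3331). The NIH3T3 sums, untreated and after 2 and 7 h, were 3202 (3169 to 3235), 4740 (4656 to 4825) and 4123 (4071 to 4176). For PERK −/− MEFs the sum moved between 2796 (2756 to 2836) when untreated and 2945 (2906 to 2984) at 8 h. The WT sum was thus 1.23 times its control at 1 h and the NIH3T3 sum 1.48 times its control at 2 h, while the PERK −/− sum was at most 1.05 times its own. These intervals cover counting error only, and the sum is a share of what each library translated, so that it does not tell whether more or fewer molecules of these proteins were made.

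**Figure D1:**
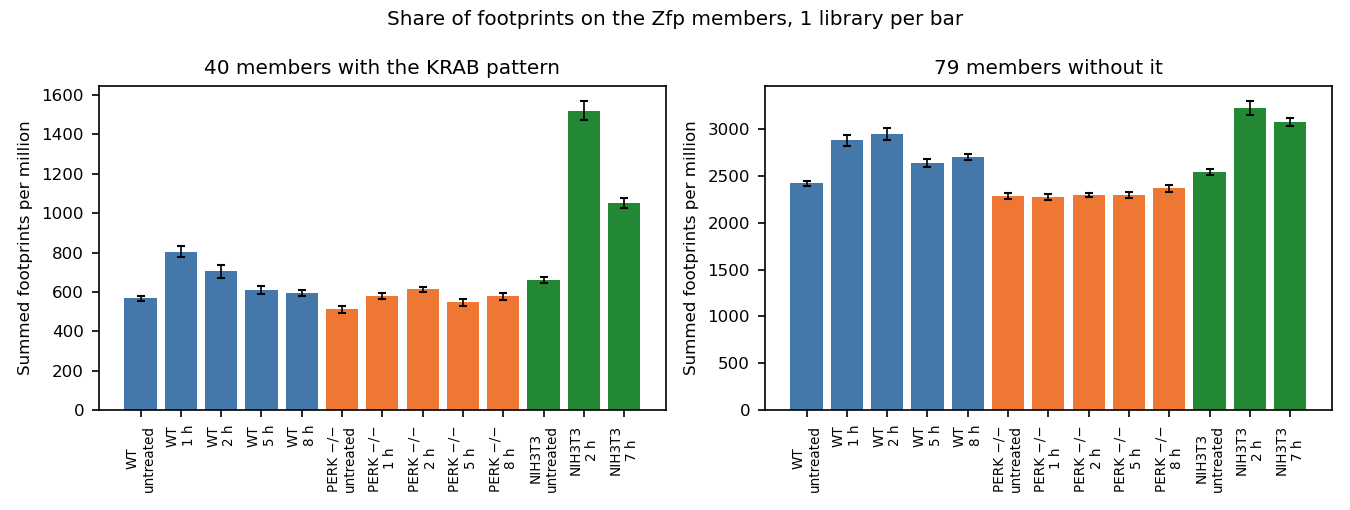
Summed CPM on the 40 members with the KRAB pattern (left) and the 79 without it (right) in each of the 13 libraries, with bars from 0 and 95% Poisson intervals for counting error. The KRAB members reached 1518 CPM in NIH3T3 cells at 2 h against 663 untreated, 805 in WT MEFs at 1 h against 567 untreated, and 614 in PERK −/− MEFs at 2 h against 512 untreated.

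Single members were next set beside all tested genes. On TPM values raised to 4 where they were lower, the members' median log2 changes in WT MEFs after 1, 2, 5 and 8 h were 0.41 (0.30 to 0.51), 0.46 (0.30 to 0.55), 0.27 (0.10 to 0.40) and 0.31 (0.05 to 0.45), where brackets give the 95% order-statistic interval over genes. Over all tested genes the medians were 0.00, 0.02, 0.05 and 0.05. At 1 h, 16 of the 119 members were at least 2-fold up, against 4.75% of the background, and none at least 2-fold down, against 2.6%. After 2 h there were 16 up and 2 down (6.19% and 4.56% of the background), after 5 h 11 and 0 (6.58% and 4.05%), and after 8 h 11 and 2 (7.27% and 4.41%). By these shares the members' excess over the background was widest at 1 h, whereas by the medians it was 0.41 at 1 h and 0.44 at 2 h. The level filter took in the Tg libraries, so that a gene could enter by its rise. By the untreated MEF libraries alone (mean of at least 5 TPM), 110 Zfp genes entered, with 11 up at 1 h and 14 at 2 h. Of all genes under that filter, 4.34% and 5.48% were up, so that the order of these times depends on the filter. The share that was up at 5 and 8 h (9.24% of members) stood close to the background. Of the 16 members up at 1 h, 15 had a counting interval that lay above 0, and at the other 3 times every member that was up did so. With TMM factors 10 members were up at 1 h and 12 at 2 h, and with DESeq2 size factors the calls at 8 h were 8 up and 3 down, 72.7% up against 84.6%.

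**Figure D2:**
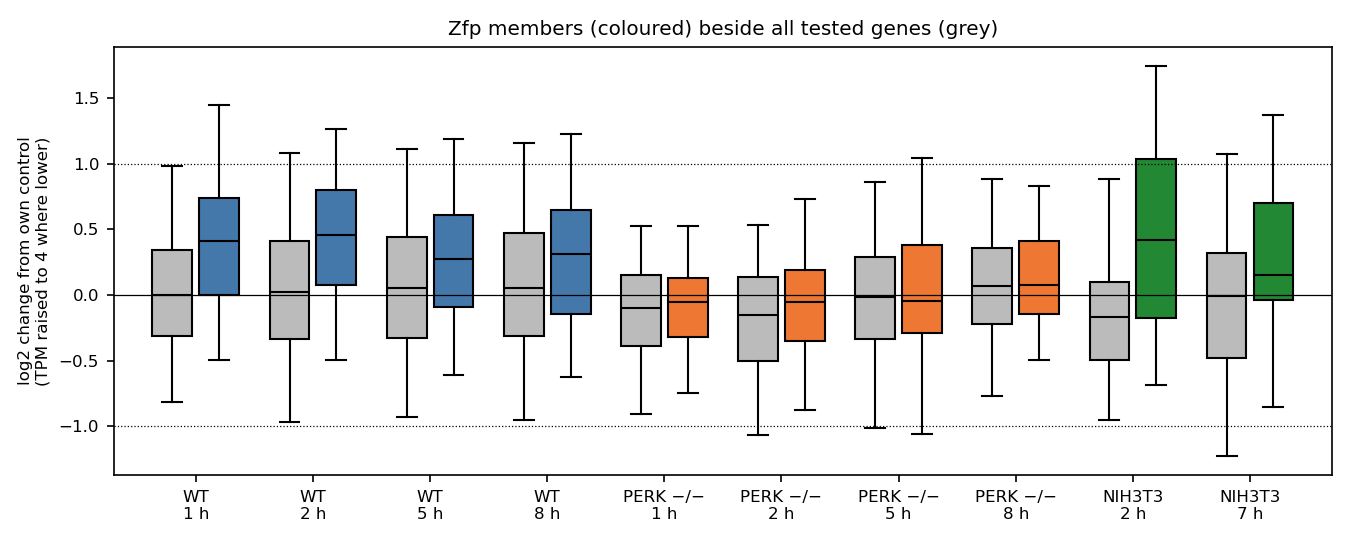
Log2 change from the untreated library of the same cells for the Zfp members (coloured) and all 8960 tested genes (grey) in the 10 Tg libraries. Boxes span the quartiles with the median as a line, whiskers span the 5th to 95th percentiles, and dotted lines mark 2-fold. The members sit above the background in WT MEFs and in NIH3T3 cells, most of all at 2 h in the latter, and beside it in PERK −/− MEFs.

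Some members were up early, some late. Counting any of the 4 times, 29 members were up at least once (11.5% of the background), 7 were up at both 1 and 2 h (2.65%) and 8 at both 5 and 8 h (5.73%). Of the 5 WT values of each member, the highest came at 1 or 2 h in 81 members, 68.1% of them, against 36.2% of the background, and the lowest was the untreated one in 63, against 34.1%. The libraries at 1 and 2 h were at least 2-fold apart in 8 members (4.31% of the background) and those at 5 and 8 h in 2 (0.134%). In PERK −/− MEFs the same pairs of libraries differed 2-fold in 1 member (1.08%) and in 12 (6.88%).

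An early rise without shared windows was that of Zfp593, the counterpart of a yeast factor that leaves the nucleus with the large ribosomal subunit (mm10 chromosome 4, 134243289 to 134245592, minus strand). It stood at 19.9, 54.6, 42.8, 34.5 and 37.2 TPM in WT MEFs, at 16.6, 18.7, 16.4, 18.6 and 23.4 TPM in PERK −/− MEFs and at 44.5, 111 and 79 TPM in NIH3T3 cells (untreated, 2 and 7 h). All 4 WT Tg values lay above the untreated one by 1.74-fold or more, and the log2 change in counts at 1 h was 1.47 (0.99 to 1.96) with PERK and 0.20 (−0.40 to 0.82) without it, where brackets give the exact 95% interval for counting error. Zfp574, with 18 finger patterns, went from 7.02 to 15.6 TPM at 1 h and 14.4 TPM at 2 h in WT MEFs, and from 10.5 to 7.79 and 5.50 TPM in PERK −/− MEFs, so that its log2 changes at 2 h were 1.03 and −0.93. Zfp787 was at 6.05, 14.2, 15.1, 13.9 and 12.9 TPM in WT MEFs and thus up more than 2-fold at every time, with a count change at 2 h of 1.19 (0.63 to 1.73). Zfp84, a KRAB member, was at 6.99, 14.3, 18.5, 12.3 and 14.2 TPM in WT MEFs and 13.8, 32.6 and 30.4 TPM in NIH3T3 cells. It was up at 1, 2 and 8 h and in both NIH3T3 libraries, and its PERK −/− changes stayed between −0.26 and 0.25. Zfp781 had the largest change at 1 h, from 4.73 to 21.3 TPM at 1 h and 12.2 TPM at 2 h, but every window of its reference coding sequence also stood in Gm3055, so the gain cannot be given to Zfp781 alone.

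Of the 8 members up at both 5 and 8 h in WT MEFs, Zfp516 and Zfp787 were up at all 4 times, 1.68% of the members against 1.73% of the background. Zfp746, the parkin substrate PARIS (mm10 chromosome 6, 48062395 to 48086593, minus strand), was at 4.72, 9.15, 14.9, 14.1 and 16.01 TPM, a log2 change of 1.58 at 5 h and 1.76 at 8 h, with a count change at 8 h of 1.77 (1.46 to 2.09). Its PERK −/− values were 8.10, 5.69, 5.44, 7.11 and 8.01 TPM, all 4 Tg libraries lower than the untreated one. Zfp771 was at 10.6, 18.7, 30.1, 28.2 and 32.4 TPM in WT MEFs and Zfp358 at 6.04, 5.87, 14.4, 15.9 and 16.2 TPM, with log2 changes at 8 h of 1.62 and 1.42. Zfp516, a regulator of brown fat genes, was up at all 4 times, at 5.50, 11.6, 11.2, 14.4 and 14.8 TPM. Zfp513 changed by 1.49, 1.33 and 1.30 at 2, 5 and 8 h. In NIH3T3 cells this group did not move as one, since at 7 h Zfp516 and Zfp358 had changes of 0.67 and 0.56 and Zfp771 was lower, at −0.85.

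The changes in WT MEFs went with base composition at all 4 times. In WT MEFs at 8 h the median change was −0.06 in the 59 members with the lower GC content and 0.61 in the 60 with the higher, and the background genes on the same sides of that limit (49.0% GC) had medians of −0.28 and 0.22. At 2 h the members' medians were 0.24 and 0.75 against −0.22 and 0.15, and at 5 h 0.01 and 0.54 against −0.26 and 0.19. At 1 h the members' medians were 0.29 and 0.51 against −0.16 and 0.07 in the background, so that members of both kinds stood above background genes of like composition. With the background's GC trend removed from every change, the 4 medians of the members became 0.47, 0.53, 0.36 and 0.37. Of the members just named, Zfp746, Zfp358 and Zfp516 stayed at or above 2-fold at 5 and 8 h (1.21 and 1.34, 1.10 and 1.08, 1.03 and 1.02), whereas Zfp771 went to 0.69 and 0.80 and Zfp513 to 0.93 and 0.84. Zfp787 came to 0.62 and 0.44. Early calls ended as well, those of Zfp787 (0.88 and 0.77 at 1 and 2 h), Zfp574 (0.93 and 0.69) and Zfp516 (0.88 and 0.73). At 1 h Zfp335 came to 0.88, and at 2 h Zfp593, Zfp771, Zfp687 and Zfp326 came to 0.65, 0.77, 0.93 and −0.89. Zfp84 at 1.08 and 1.498 and Zfp593 at 1 h (1.17) stayed past 2-fold. The removal also brought members past 2-fold in WT MEFs. Among them were Zfp292 at 1, 2 and 5 h (1.04, 1.18 and 1.07), Zfp445 and Zfp644 at 2 h (1.12 and 1.05) and Zfp655 at 5 h (1.08). In all, 15, 16, 10 and 10 members were then up at the 4 times. The part of GC content in these changes was not tested beyond this, and GC content and the KRAB domain go together in these genes.

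**Figure D3:**
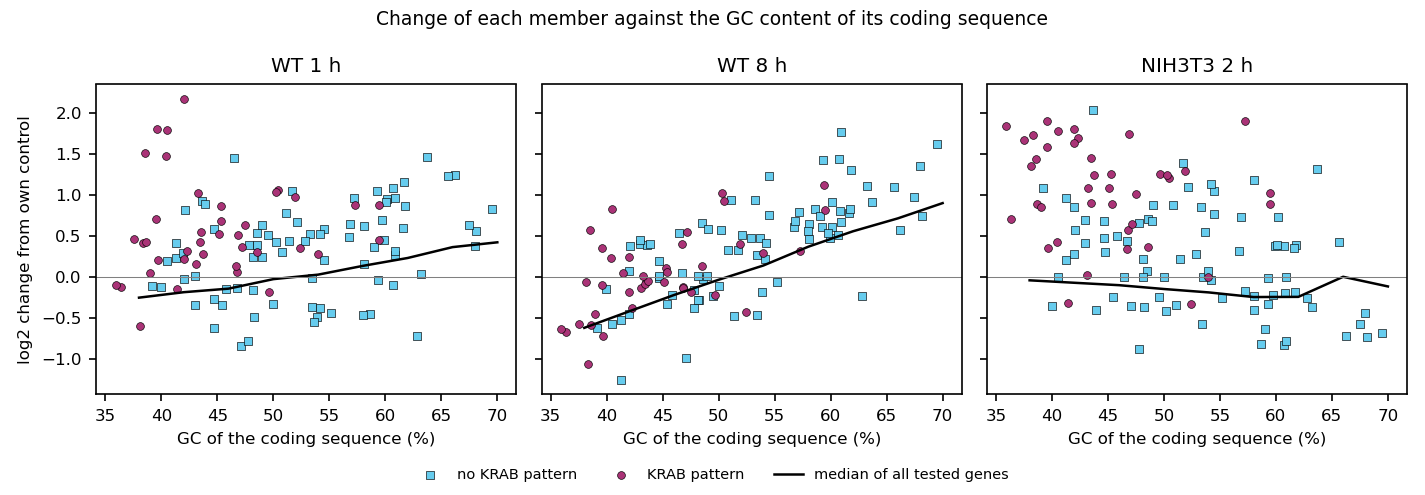
Log2 change of each member against the GC content of its coding sequence (%) in WT MEFs at 1 h and 8 h and in NIH3T3 cells at 2 h. Circles are members with the KRAB pattern, squares those without, and the line is the median of all tested genes in bins of 4 percentage points that held at least 20 genes. At 8 h members and background rise together with GC content (members' medians −0.06 below and 0.61 above 49.0% GC), whereas in NIH3T3 cells at 2 h the members' medians are 0.68 below and 0.03 above it.

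At 2-fold, few members were lower in WT MEFs: Zfp326 and Zfp960 at 2 h, and Zfp654 and Zfp960 at 8 h. Zfp326, which joins messenger ribonucleoproteins to RNA polymerase II and splicing (mm10 chromosome 5, 105876565 to 105915818, + strand), was at 75.04, 41.9, 34.9, 38.7 and 37.7 TPM, past 2-fold down at 2 h, and its count change at 2 h was −0.94 (−1.19 to −0.70). In PERK −/− MEFs it was at 55.7, 58.1, 79.8, 54.9 and 42.6 TPM, highest at 2 h. Zfp706 was at 0.575 to 0.825 of its untreated level in WT MEFs, with a count change at 2 h of −0.80 (−1.42 to −0.23), and at or above it in PERK −/− MEFs (112, 119, 148, 112 and 148 TPM). In NIH3T3 cells Zfp706 was also lower, at 281, 217 and 141 TPM. Zfp91, an E3 ubiquitin ligase of noncanonical NF-κB signalling, changed by −0.62 to −0.36 on the log2 scale in the 4 WT and 2 NIH3T3 Tg libraries, short of 2-fold. Zfp106, an RNA-binding protein needed by motor neurons, was at 21.4, 12.4, 12.98, 14.4 and 16.4 TPM in WT MEFs and 21.1, 11.5 and 15.3 TPM in NIH3T3 cells, and Zfp148, which binds GC-rich promoters, at 19.5, 15.3, 14.7, 16.3 and 15.5 TPM in WT MEFs. With the GC trend removed the 4 changes of Zfp148 lay between −0.17 and 0.04. At 5 and 8 h the KRAB members Zfp386 (8.70 untreated, 5.36 and 5.28 TPM) and Zfp932 (6.86 untreated, 4.08 and 4.32 TPM), both low in GC, were lower short of 2-fold, and with the GC trend removed their changes came to between −0.13 and 0.15.

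Members with the KRAB pattern had their highest WT values early. Their 4 median changes in WT MEFs, in order of time, were 0.43 (0.30 to 0.68), 0.37 (0.22 to 0.49), 0.02 (−0.12 to 0.27) and −0.05 (−0.13 to 0.22), whereas those of the 79 others were 0.39 (0.23 to 0.52), 0.54 (0.26 to 0.75), 0.38 (0.20 to 0.51) and 0.47 (0.33 to 0.58). At 1 h 35 of the 40 were above their untreated level and 8 were up 2-fold, and at 8 h 19 of the 40 were above it and 2 were up. Among the 8960 tested genes, 4448 were above it at 1 h and 4808 at 8 h, and 4.75% and 7.27% were up 2-fold. The KRAB counts at 8 h thus stood near the background shares. The WT maximum came at 1 h in 24 of the 40 and in 17 of the 79 others, and at 8 h in 1 and 20. It came at 2 h in 13 and 27, and in 36.2% of the background it came at 1 or 2 h. The summed CPM of the 40 went from 567 to 805 (776 to 835) at the first time, then 705, 611 and 596 (582 to 610). In PERK −/− MEFs it was higher with Tg too, from 512 (495 to 529) to 580, 614 (601 to 627), 548 and 578, so that at 2 h the sum was 19.9% above its control without PERK and 24.3% above it in WT MEFs. The KRAB medians in WT MEFs thus returned to near the untreated level, where the background medians also lay (0.05 at 5 and 8 h). This return was not seen with the background's GC trend removed, when the KRAB medians at 5 and 8 h were 0.42 and 0.38. Among the low-GC members alone, the 31 with the KRAB pattern had a median of 0.42 at 1 h and the 28 without it 0.10, and at 8 h the medians were −0.07 and −0.02. No test sets these groups apart, since the pattern was looked at with the changes known.

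**Figure D4:**
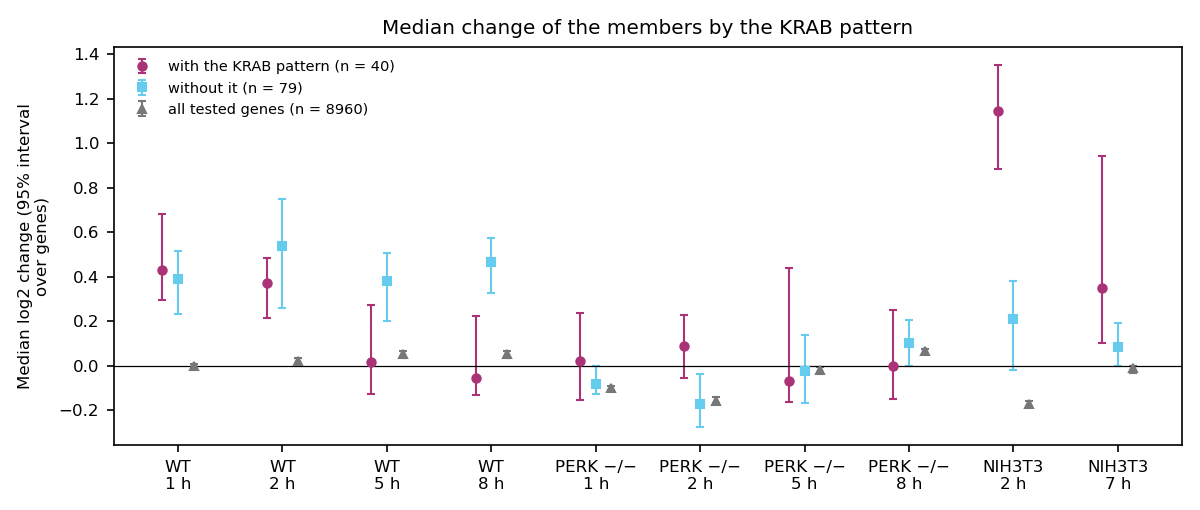
Median log2 change from the untreated library for members with the KRAB pattern (circles, n = 40), members without it (squares, n = 79) and all tested genes (triangles, n = 8960), with 95% order-statistic intervals over genes, in the 10 Tg libraries. The KRAB members reach 1.14 in NIH3T3 cells at 2 h and have medians between −0.07 and 0.09 in WT MEFs at 5 and 8 h and in PERK −/− MEFs.

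In PERK −/− MEFs the members stayed near their untreated level early on. Their medians over the 4 times were −0.05 (−0.11 to 0.00), −0.06 (−0.16 to 0.00), −0.04 (−0.14 to 0.07) and 0.08 (−0.01 to 0.20), beside background medians of −0.10, −0.16, −0.02 and 0.07. At 1 h 2 members were up and 2 down (0.759% and 3.63% of the background), at 2 h 1 and 4 (0.67% and 6.34%), at 5 h 8 and 7 (3.15% and 5.19%) and at 8 h 4 and 2 (3.33% and 2.98%). With TMM factors the background median at 2 h moved from −0.16 to −0.01 and that of the members from −0.06 to 0.05, so their sign there depends on the scaling, and the calls at 1 h became 2 up and 1 down and those at 2 h 2 up and 3 down. Such small counts say little about the members.

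Some members still rose without PERK. Zfp57, the KRAB protein that keeps parental imprints (mm10 chromosome 17, 37001163 to 37010635, + strand), was higher in all 10 Tg libraries, at 9.73, 20.2, 16.8, 17.4 and 18.4 TPM in WT MEFs, 6.01, 10.8, 9.49, 13.6 and 14.7 TPM in PERK −/− MEFs and 15.1, 34.9 and 55.9 TPM in NIH3T3 cells. Its count change at 8 h was 0.92 (0.63 to 1.23) with PERK and 1.28 (0.81 to 1.77) without it in MEFs, and 1.88 (1.65 to 2.12) in NIH3T3 cells at 7 h. Zfp9, a KRAB member with 12 finger patterns, was at 17.1, 26.8, 31.3, 40.2 and 30.5 TPM in PERK −/− MEFs and reached a count change of 1.28 (1.02 to 1.55) at 5 h, against 0.34 (0.07 to 0.59) in WT MEFs. Zfp655 was at 8.90, 19.8, 15.1, 16.6 and 14.8 TPM there and Zfp948 at 4.70, 14.6, 10.3, 7.82 and 5.59 TPM, both starting in PERK −/− MEFs from a level well under that of untreated WT MEFs (17.7 and 10.9 TPM). On the other side, Zfp414 went from 12.04 to 6.14, 4.18 and 2.22 TPM at 1, 2 and 5 h and was at 10.2 TPM at 8 h, and Zfp444 was at 11.1, 6.59, 3.41, 4.09 and 13.2 TPM. Zfp319 (8.65 TPM untreated, 4.34, 4.51 and 4.14 TPM at 1, 2 and 5 h) and the NET family repressor Zfp503 (12.8 TPM untreated, 7.18 and 6.17 TPM at 1 and 2 h) were lower as well. With the GC trend removed, Zfp414 and Zfp444 stayed past 2-fold at 2 and 5 h, Zfp319 came to −0.72, −0.56 and −0.995 at 1, 2 and 5 h and Zfp503 to −0.50 and −0.62 at 1 and 2 h, and among those that rose Zfp655 came to 0.85 at 1 h and Zfp948 to 0.61 at 2 h. Zfp414, Zfp444, Zfp319 and Zfp503 had GC contents of 60.1% to 68.0% in the coding sequence, and over all background genes above 49.0% GC the PERK −/− median at 2 h was −0.29.

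Taken gene by gene, the WT change exceeded the PERK −/− change at the early times. The 4 median differences on the log2 scale were 0.42 (0.24 to 0.58), 0.40 (0.24 to 0.60), 0.19 (0.05 to 0.39) and 0.17 (−0.02 to 0.33), beside 0.11, 0.22, 0.07 and 0.00 over the background. Since the untreated PERK −/− library enters every PERK −/− change, these 4 values are not independent of one another. Leaving aside the members with over 20% shared windows, the largest differences were those of Zfp414 and Zfp787 at 1 h (1.89 and 1.78), of Zfp444 and Zfp414 at 2 h (2.62 and 2.33) and 5 h (2.49 and 2.08), and of Zfp746 at 8 h (1.78). Untreated, the 2 MEF lines were close, with a median log2 ratio of PERK −/− to WT of −0.03 (−0.12 to 0.07) against 0.12 in the background. There were 2 members at least 2-fold higher in untreated PERK −/− MEFs, Zfp738 and Zfp971 (6.52% of the background), and 2 lower, Zfp462 and Zfp948 (2.18%). Zfp462, a large protein that keeps heterochromatin in stem cells, was at 2.78, 3.45, 3.29, 2.93 and 1.76 TPM in PERK −/− MEFs against 11.01, 14.9, 12.3, 7.69 and 7.89 TPM in WT MEFs, lower at every time.

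NIH3T3 cells, which share no library with the MEFs, gave the most members past 2-fold. The median of the members was 0.42 (0.31 to 0.68) at 2 h and 0.15 (0.06 to 0.29) at 7 h, against −0.17 and −0.01 over the background. At 2 h 32 members were up and none down (4.07% and 3.94% of the background), and at 7 h 20 up and 3 down (5.8% and 8.34%), with 13 up at both times (1.81%). Every one of the 32 had a counting interval above 0. The KRAB pattern was found in 24 of the 32, and the median change of the 40 KRAB members at 2 h was 1.14 (0.88 to 1.35), or 2.21-fold, against 0.21 (−0.02 to 0.38) for the others. Removing the GC trend left the KRAB median at 1.14 and leaving out members with over 20% shared windows at 1.05. At 7 h it was 0.35 (0.10 to 0.94), with 12 of the 40 up.

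Zfp747, a KRAB member that shares 66.1% of its windows, chiefly with 1 other gene, rose from 14.1 to 52.7 TPM at 2 h and was back at 16.2 TPM at 7 h. Zfp317, with under 1% of windows shared, did the same at 6.45, 21.6 and 5.68 TPM, a count change at 2 h of 1.79 (1.39 to 2.18). Zfp7 was at 5.17, 12.6 and 14.03 TPM and stayed up at 7 h. Zfp53 and Zfp87 were up at 2 h (1.09 and 1.08 on the log2 scale) and near their untreated level at 7 h (0.04 and 0.19). Among the members lower at both NIH3T3 times were Zfp367 at 33.1, 19.4 and 8.86 TPM, Zfp771, Zfp395, Zfp768 and Zfp703. All 5 of these had been higher than untreated in WT MEFs at 5 and 8 h, as were 79 and 76 of the 119 members. Their GC contents were 58.6% to 69.5%. With the GC trend removed, Zfp703 came to −0.20 and −0.01 and Zfp395 to −0.06 and 0.10 in WT MEFs at 5 and 8 h. Zfp367, Zfp771 and Zfp768 stayed above 0 there. WT MEFs and NIH3T3 cells at 2 h had 5 members up in common, Zfp263, Zfp35, Zfp593, Zfp781 and Zfp84. These are 31.2% of the 16 in WT MEFs and 15.6% of the 32 in NIH3T3 cells. In the background, 119 of 8960 genes (1.33%) were up in both, among 555 up in WT MEFs and 365 up in NIH3T3 cells. With WT MEFs at 1 h, 9 members were in common, or 56.2% of 16 and 28.1% of 32. The background then had 123 genes (1.37%) up in both, among 426 and 365. Both overlaps were a larger share of the WT calls than in the background, and a smaller share of the NIH3T3 calls.

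**Figure D5:**
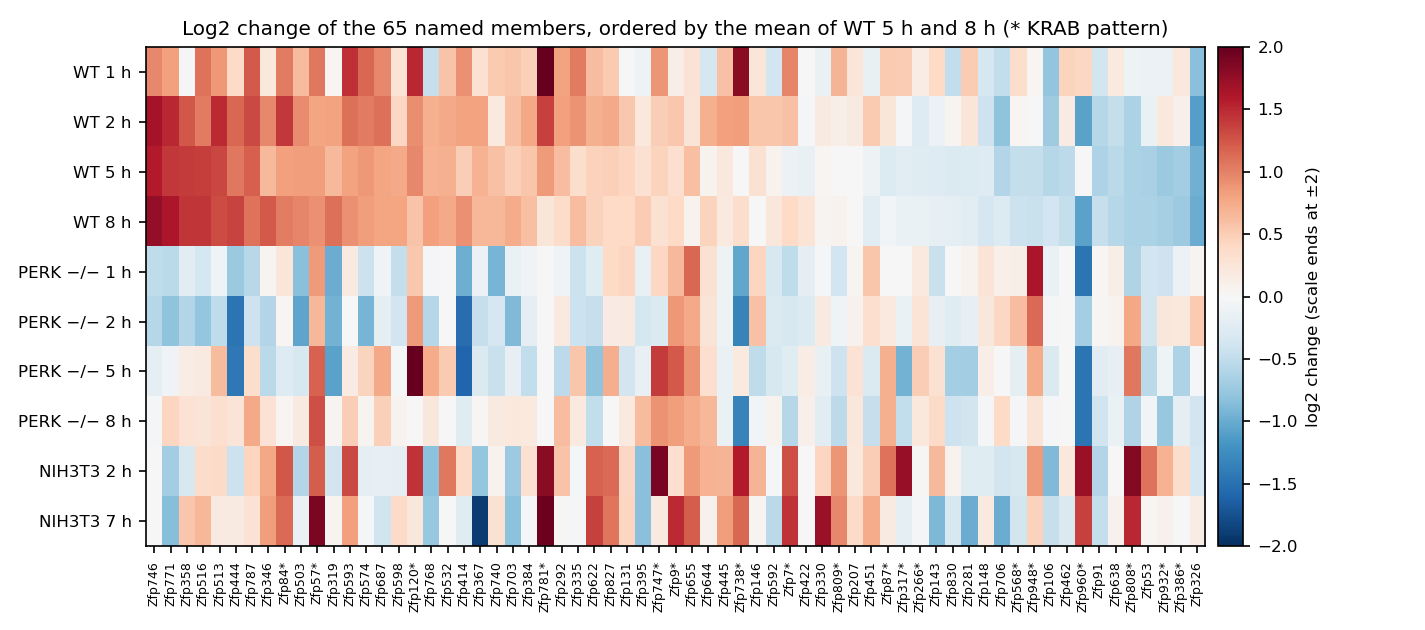
Log2 change from the untreated library of the same cells for the 65 members named by rule, 1 column each, in the 10 Tg libraries, ordered by the mean of WT MEFs at 5 and 8 h. Asterisks mark the KRAB pattern, and the colour scale ends at 2 in each direction. Zfp746, Zfp771, Zfp516, Zfp358 and Zfp513, at the high end of the order, are below their untreated level in PERK −/− MEFs at 1 and 2 h, and Zfp57 is above its untreated level in all 10 libraries. The GC trend is not removed here, and with it removed Zfp513 and Zfp358 came to 0.18 and 0.01 at 1 h in PERK −/− MEFs.

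By role, the 10 members that act on RNA and ribosomes split in direction. Zfp622, which takes part in the last steps of making the large ribosomal subunit (mm10 chromosome 15, 25984366 to 25998481, + strand), was higher in every WT and NIH3T3 Tg library and lower in every PERK −/− one. It was at 62.7, 96.5, 102, 86.2 and 86.2 TPM in WT MEFs, 55.9, 127 and 145 TPM in NIH3T3 cells and 59.04, 49.9, 42.7, 33.9 and 41.96 TPM without PERK, and the count change at 2 h was 0.71 (0.54 to 0.88) in WT MEFs, −0.39 (−0.54 to −0.24) in PERK −/− MEFs and 1.30 (1.15 to 1.45) in NIH3T3 cells. Zfp593, the other ribosome assembly member, followed it in WT and NIH3T3 cells, as given above. Zfp598, the ubiquitin ligase that marks collided ribosomes, was at 11.9, 14.3, 15.7, 20.04 and 20.6 TPM in WT MEFs and 12.7, 9.13, 9.75, 12.3 and 13.4 TPM in PERK −/− MEFs, short of 2-fold throughout. Zfp346, which binds double-stranded RNA, was up at 8 h (7.57 to 17.7 TPM), and Zfp330 in NIH3T3 cells at 7 h (72.2 to 239 TPM, a count change of 1.73 (1.60 to 1.86)) while it stayed between −0.13 and 0.19 in WT MEFs. Zfp638, which silences unintegrated retroviral DNA, changed by −0.47, −0.54 and −0.58 at 2, 5 and 8 h in WT MEFs (−0.08, −0.01 and 0.03 with the GC trend removed), and the splicing protein Zfp830 was lower in PERK −/− MEFs at 5 and 8 h (−0.68 and −0.42). Of the 10, 1 was up 2-fold in WT MEFs at 1 h (4.75% of the background) and 2 in NIH3T3 cells at 2 h (4.07%), and the list's median was 0.20 and 0.14. A list of 10 is too short to set such counts apart from the background.

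The 19 tested members listed as transcription regulators had medians of 0.51, 0.71, 0.43 and 0.41 in WT MEFs and −0.08 and −0.16 at 1 and 2 h in PERK −/− MEFs. Those up 2-fold in WT MEFs were Zfp516 and Zfp335, a partner of trithorax complexes (4.74 to 9.74 TPM at 1 h) at 1 h, and Zfp516, Zfp513 and Zfp687 at 2 h. Of the background, 4.75% and 6.19% were up at these times. Zfp687, Zfp592 and Zfp532 form one complex, and their 2 h changes in WT MEFs were 1.11, 0.55 and 0.76. Zfp143, an activator of small nuclear RNA genes and many promoters, and Zfp281 were higher at 1 h (0.39 and 0.51) and slightly lower at 5 and 8 h. Zfp384 was above its untreated level at all 4 times in WT MEFs, by 0.48 to 0.78, and the NET family members Zfp703 and Zfp503 by 0.48 to 0.97. With the GC trend removed Zfp703 was between −0.20 and 0.16, Zfp503 between 0.18 and 0.30 and Zfp384 between 0.36 and 0.62. Zfp131, Zfp292, Zfp451, Zfp644 and Zfp827 were each short of 2-fold in all MEF libraries. With the GC trend removed, Zfp292 came to 1.04, 1.18 and 1.07 at 1, 2 and 5 h in WT MEFs and Zfp644 to 1.05 at 2 h. Zfp827 and Zfp532 were up in NIH3T3 cells at 2 h (1.13 and 1.05).

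Of the 5 tested members that keep imprints or silence retroelements, Zfp57 is described above. Zfp445, which shares the imprint task, was at 9.97, 14.9, 17.7, 11.6 and 11.4 TPM in WT MEFs, 12.4, 11.6, 11.6, 11.3 and 11.3 TPM in PERK −/− MEFs and 15.8, 25.3 and 28.2 TPM in NIH3T3 cells, higher in each WT and NIH3T3 Tg library and slightly lower in each PERK −/− one. Zfp809, which represses murine leukaemia proviruses, was higher at 1 h in WT MEFs (0.68) and at both NIH3T3 times (0.89 and 0.95). Zfp568, which represses an Igf2 transcript, stayed between −0.48 and 0.62 in all libraries.

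The corepressors of KRAB proteins were read beside them. None of 21 listed genes of the Trim28, Setdb1, HP1, NuRD and DNA methylation machinery was up 2-fold in any Tg library, which in a list of this size is near the background shares given above, and the list's medians were −0.15 in WT MEFs at 1 h and −0.30 in NIH3T3 cells at 2 h. Trim28 itself was at 261, 254, 275, 289 and 293 TPM in WT MEFs and at 164, 89.9 and 148 TPM in NIH3T3 cells. Those at least 2-fold down in WT MEFs were the HP1 genes Cbx5 (424, 225, 133, 128 and 129 TPM), Cbx3 (1024, 729, 530, 521 and 482 TPM) and Cbx1 (249, 164, 109, 105 and 114 TPM), and Hdac2 (189, 105, 87.5, 84.9 and 85.7 TPM). Cbx5, Cbx1 and Hdac2 were past 2-fold at 2, 5 and 8 h and Cbx3 at 8 h alone. Of the background, 4.56%, 4.05% and 4.41% were down at 2, 5 and 8 h. In NIH3T3 cells Cbx3 and Gatad2a were 2-fold down at 7 h (−1.11 and −1.29), against 8.34% of the background. In PERK −/− MEFs none of the 21 was 2-fold down, again near the background shares.

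Other C2H2 naming series were read for comparison. The 22 tested Zbtb genes had medians of 0.25 and 0.55 in WT MEFs at 1 and 2 h and 0.11 in NIH3T3 cells at 2 h, with 2, 3 and 6 of them up. The 7 tested Zscan and Zkscan genes had 0.31, 0.60 and 0.48, with 2, 3 and 1 up. The 9 tested genes named Zfp with a letter had −0.09 and −0.02 in WT MEFs, with none up at either time, and 0.59 in NIH3T3 cells at 2 h, with 3 up. Of the background, 4.75% and 6.19% were up in WT MEFs at 1 and 2 h and 4.07% in NIH3T3 cells at 2 h. Of the 119 members, 26.9% were up in the latter, so that rises past 2-fold there were not particular to the members. Within the Zfp members, those with 10 or more finger patterns (n = 45) had a median of 0.85 in NIH3T3 cells at 2 h, those with 5 to 9 (n = 41) 0.43 and those with 1 to 4 (n = 29) 0.00, while in WT MEFs at 2 h the 3 medians were 0.49, 0.44 and 0.21. Members with the KRAB pattern had a median of 12 finger patterns and the others 6, so that finger number and the KRAB pattern were not set apart here. An ATG stood in the annotated 5′ leader of 69 members (58.0%) and of 47.5% of background genes with a coding sequence. Members with one had WT medians of 0.42, 0.49, 0.24 and 0.33 in order of time, those without one 0.41, 0.38, 0.30 and 0.27. The intervals for WT MEFs at 2 h overlapped (0.19 to 0.75 with one, 0.24 to 0.60 without). For NIH3T3 cells (2 and 7 h) the medians were 0.37 and 0.08 with one, against 0.53 and 0.22 without. Neither group was higher throughout, and the part of a leader ATG was not tested.

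For some members TPM and counts differed, and their values are uncertain. In 7 of the 119, the change in TPM and in expected counts per library differed by over 1.5 times in at least 1 comparison with 10 or more counts on both sides, and 5 of these 7 shared over 10% of their windows with other genes, as 18 members did in all. Zfp738, which shares 60.2% of windows, was at 10.1, 4.92, 3.11, 11.6 and 2.03 TPM in PERK −/− MEFs, 2-fold down at 1 h by TPM (−1.04), whereas its counts were higher, by 1.43 (0.77 to 2.14). Zfp808 (64.2% shared) was up in NIH3T3 cells at 7 h by TPM (1.51) and level by counts, −0.03 (−0.64 to 0.56). For Zfp971, which shares windows with Zfp966, the change at 1 h in WT MEFs was 1.47 by TPM and 0.31 by counts, and its excess in untreated PERK −/− MEFs was 1.74 by TPM and 0.72 by counts. Zfp120 at 5 h in PERK −/− MEFs changed by 2.70 in TPM and 1.63 (0.93 to 2.38) in counts. Zfp960, with 90.4% of windows shared, chiefly with Zfp97, lay between 0.18 and 11.1 TPM over the MEF libraries. Zfp654 and Zfp644 differed likewise at 8 h in WT MEFs with no shared windows. Without these 7 members, 12, 15, 11 and 11 were up at the 4 times in WT MEFs, and 28 and 16 in NIH3T3 cells.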

How the data were processed

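Ribosome footprints were sequenced from 13 libraries without cycloheximide. Per the study's methods, reads of 22 to 34 nt were kept after removal of polyA and of rRNA and tRNA matches (STAR). Bowtie2 placed them on mm10 RefSeq coding sequences without their first and last 30 nt, and RSEM quantified them. Tool versions were not given in the sources used here. The deposited expected counts (whole numbers) and the deposited TPM of the authors were used as they stand. TPM is a share of each library, so a fall in all translation does not show. Values under 4 TPM were raised to 4, and a gene was called at 2-fold against the untreated library of its cells. With 1 library per condition there was no test: gene counts carry exact conditional intervals, sums Poisson intervals and medians order-statistic intervals, all 95% and for counting error or spread over genes only. Alternative scalings used edgeR 4.0.16 (TMM) and DESeq2 1.42.0 (size factors) with R 4.3.3, and the rest Python 3.11.15, pandas 2.3.3, scipy 1.17.1 and statsmodels 0.14.6 (lowess fraction 0.3 for the GC trend). Finger, KRAB and linker patterns and shared 28-base windows came from GENCODE M21 coding sequences. All 119 members matched by symbol. Scripts were tested on simulated counts.

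The members and the gene lists were chosen with earlier results of these data known. Named members by change had at least 50 counts in the untreated and Tg library together and were the 5 highest and 5 lowest early and late in each MEF line and at both NIH3T3 times, the 5 largest genotype differences, the 10 highest in level, and those on the role lists. Zfp35, Zfp65, Zfp263, Zfp654 and Zfp971 were named after their values were seen. Doses come from the methods of the study.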

Additional observations from a re-analysis of the deposited data

Results flagged for a closer look

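In 6 members every WT Tg library lay on one side of its untreated library and every PERK −/− Tg library on the other, among the 65 members named by rule. The difference between the genotypes was not tested, and the 4 changes of a genotype share 1 untreated library. The mean log2 change over the 4 times in WT MEFs minus that in PERK −/− MEFs was 1.86 for Zfp414, 1.81 for Zfp746, 1.06 for Zfp622, 0.57 for Zfp445, 0.57 for Zfp809 and −0.76 for Zfp706. Zfp414 ranged from 0.49 to 0.92 in WT and from −1.59 to −0.24 in PERK −/− MEFs, Zfp746 from 0.95 to 1.76 and from −0.57 to −0.02, and Zfp622 from 0.46 to 0.71 and from −0.80 to −0.24. Zfp706 was the one in the other direction, from −0.80 to −0.28 in WT and from 0.01 to 0.41 in PERK −/− MEFs. Zfp809 and Zfp445 came close to 0 in one genotype each, with a lowest WT change of 0.01 for Zfp809 and a highest PERK −/− change of −0.10 for Zfp445. With the GC trend removed, Zfp706 came to −0.03 and −0.02 at 1 and 5 h in PERK −/− MEFs and Zfp746 to 0.001 at 8 h, so that Zfp706 and Zfp746 lost the pattern. Over all 119 members, 8 had 4 WT values above and 4 PERK −/− values below their controls, 6.72% against 5.17% of the background, so that the pattern was about as frequent among Zfp genes as among other genes. The reverse, the direction of Zfp706, was found in 2 members, 1.68% against 3.95% of the background.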

How the results depend on the processing

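No paired analysis was possible because each condition had 1 library, and for the same reason no replicate could be left out. Of the 440 alternative values computed for the counts, medians, differences and summed shares, 347 kept within 1.5 times the count or within the interval of the value reported. The others are given here by alternative. For changes at 1, 2, 5 and 8 h the reported counts were 16, 16, 11 and 11 up and 0, 2, 0 and 2 down in WT MEFs, 2, 1, 8 and 4 up and 2, 4, 7 and 2 down in PERK −/− MEFs, and in NIH3T3 cells 32 and 20 up and 0 and 3 down. At 1.5-fold in place of 2-fold, which by construction calls more, they were 40, 46, 31 and 34 up and 5, 5, 7 and 7 down in WT MEFs, 4, 10, 18 and 18 up and 12, 14, 16 and 4 down in PERK −/− MEFs, and 52 and 32 up and 8 and 10 down in NIH3T3 cells. With TMM factors, 10 were up at 1 h and 1 down at 5 h in WT MEFs, 1 was down at 1 h and 2 were up at 2 h in PERK −/− MEFs, the PERK −/− medians turned positive, 0.012 and 0.046 at 1 and 2 h, the WT minus PERK −/− medians 0.24 at 1 h and 0.17 at 2 h, and the untreated ratio of PERK −/− to WT −0.19. With DESeq2 size factors, 1 was down at 5 h in WT MEFs and 1 at 1 h in PERK −/− MEFs, the median there at 2 h turned positive too (0.018), the WT minus PERK −/− median at 2 h 0.22, and the untreated ratio −0.18. A pseudocount of 1 TPM without a floor gave 10 up at 1 h and 1 down at 5 h in WT MEFs, 1 and 13 down at 1 and 5 h in PERK −/− MEFs, and 1 and 5 down in NIH3T3 cells. A floor of 1 TPM gave 1 down at 5 h in WT MEFs, 2 up at 2 h, 14 down at 5 h and 7 up at 8 h in PERK −/− MEFs, and 4 and 6 down in NIH3T3 cells. Expected counts per library total gave 1 down at 2 h and 1 at 8 h in WT MEFs, 1 down at 1 h, 2 up at 2 h and 13 down at 5 h in PERK −/− MEFs, and 2 and 5 down in NIH3T3 cells. Counts thinned to the smallest library gave 1 down at 5 h in WT MEFs, 4 up and 7 down at 2 h and 2 up and 1 down at 8 h in PERK −/− MEFs with a median of −0.12 at 1 h, 5 down at 7 h in NIH3T3 cells, and a WT minus PERK −/− median of 0.58 at 1 h. With the GC trend removed, none was down at 2 or 8 h in WT MEFs (0 and 0), 1 was up and 5 down at 1 h and 0 up at 2 h in PERK −/− MEFs, 5 were down at 7 h in NIH3T3 cells, and the WT minus PERK −/− median at 2 h was 0.67. Without the members that share over 20% of their windows, 1 was down at 2 h and 1 at 8 h in WT MEFs, none (0 and 0) at 1 and 8 h in PERK −/− MEFs, and the summed share in NIH3T3 cells at 2 h was 0.52 above its control on the log2 scale. Without the members whose TPM and count changes differ, an alternative chosen after seeing the data, as were those without the 4 members lacking a finger pattern and those for the KRAB split, 1 was down at 8 h in WT MEFs and 1 at 1 h and 1 at 8 h in PERK −/− MEFs. A mean of at least 5 TPM in the 2 untreated MEF libraries gave 5 up at 5 h and 2 at 8 h in PERK −/− MEFs. A mean of at least 2 TPM gave medians of 0.24, 0.21, 0 and 0 in WT MEFs, WT minus PERK −/− medians of 0.23 at 1 h, 0.21 at 2 h and 0 at 5 h, 14 up at 5 h in PERK −/− MEFs and 73 and 34 up in NIH3T3 cells. Values under the floor of 4 TPM give a change of 0 by construction, which holds for many of the genes this adds. The summed shares were then 0.35 and 0.17 above control for WT MEFs after 1 and 8 h, 0.11 for PERK −/− MEFs after 8 h and 0.73 and 0.40 in NIH3T3 cells on the log2 scale. Depth limits single genes: 11 members had under 20 counts in WT MEFs at 2 h, and 8 and 9 in NIH3T3 cells at 2 and 7 h.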
